A study of Mus musculus with 2 samples.

Results

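Conventional dendritic cells are sentinel cells of the tissue that take up antigen, mature, and carry it to the lymph node to prime T cells. Textbook accounts divide them into a cross-presenting type marked by Xcr1 and Clec9a (cDC1), a type in mice often marked by Cd209a and Clec10a that primes CD4+ T cells (cDC2), and a mature, migratory state of either type that switches on the lymph node homing receptor Ccr7 and the actin-bundling protein Fscn1. They were sought here in a pair of droplet libraries of mouse tissue posterior to the tibia, where the Achilles tendon lies. The injured library was made at day 7 after burn/tenotomy, a burn combined with cutting of the tendon, and the uninjured library came from the contralateral tendon. Both were Vegfd-OE: the mice combined Hoxa11 wt/CreERT2, the Cre driver, with R26 wt/LSL-rtTA and with TetO-Vegfd. The design gives mice of both sexes, aged 8 to 12 weeks, with n = 5 per group. Because burn/tenotomy is the label of both libraries, the uninjured side is that of treated mice and not of untreated ones. Control mice without overexpression were not analysed here. The transgene needs Cre from the Hoxa11 locus, which is active in limb mesenchyme. The members had 28 Vegfd UMIs (6.33 CPM, the gene's UMIs per 1000000 UMIs of the group) in the injured library and 0 in the uninjured one, against 95.3 and 23.5 CPM in the other cells of the injured and uninjured libraries.

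Members were chosen by UMI counts in each cell, so the genes of the rule are a description and no finding. A cell needed 500 or more genes, at most 10% mitochondrial UMIs, 3 or more UMIs summed over Flt3, Zbtb46, Xcr1, Clec9a, Cd209a and Ccr7, and 5 or more of H2-Aa. It also needed fewer than 10 UMIs per 10000 of the complement genes C1qa, C1qb and C1qc, which mark macrophages, and none of Cd3d, Cd3e, Cd3g and Cd79a. This gave 275 members among 14126 filtered cells, 207 of 9366 in the injured library and 68 of 4760 in the uninjured library. Members had a median of 16217 UMIs in the injured library and 22681.5 in the uninjured library, and 4425874 and 1717228 UMIs in all. Just outside the rule, 27 injured and 7 uninjured cells had a marker sum of 2, and just inside it 20 injured and 4 uninjured cells had a sum of 3. A further 146 injured and 127 uninjured cells had enough marker UMIs but only 1 to 4 of H2-Aa. Those cells were deep (median 64834.5 and 34577 UMIs) and nearly without Itgax, the CD11c integrin of dendritic cells (0.385 and 0 CPM). Members had 52.0 CPM of Itgax in the injured library and 108 CPM in the uninjured one. The cells left out with a marker sum of 2 had 67.1 and 159 CPM of it, on few cells. At the marker limit, then, Itgax did not set members apart from the cells just outside. The libraries shared 19 barcodes, none of them a member.

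Support for the label was partial, and some members went against it. Flt3, the growth factor receptor of the lineage, and Zbtb46, its transcription factor, chose the members in part. Among genes outside the rule, Dpp4, a surface peptidase found on cDC1 and part of cDC2, was in 73.4% of injured and 73.5% of uninjured members, against 13.1% of the 245 Ly6c2+Ccr2+ monocytes of the injured library. However, 21 injured members and 1 uninjured member had 30 or more UMIs of Siglech, Ccr9, Cox6a2, Klk1 and Ly6d, genes of plasmacytoid dendritic cells (pDC), an interferon-producing lineage. The other members had at most 5 of these UMIs in the injured library and 2 in the uninjured library, well below the members over the limit. They are called pDC-gene cells here, after the genes that picked them, and not conventional dendritic cells. In the 21 injured pDC-gene cells Siglech, 1 of the genes that picked them, was at 1255 CPM, and Zbtb46 was at 4.96 CPM.

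A second set of members carried RNA of an unlike cell. In 21 injured and 9 uninjured members, 30 or more UMIs came from the marker list of one of 10 other cell types. These were mostly the fibroblast, B cell and endothelium lists in the injured library and the endothelium list in the uninjured one. The other members held at most 22 such UMIs in the injured library and 24 in the uninjured library, and the mixed cells at least 54 and 50. Cd79a of the B cell list was at 0 in all members by the rule. In the Cd209a and Ccr7/Fscn1 subsets defined below, Ms4a1 and Pax5 of that list were at 0 as well in the injured library. Only Cd79b and Ebf1 were left there, and only Ebf1 in uninjured Ccr7/Fscn1 cells, so B cell RNA was not shown in these subsets. Together 39 injured and 10 uninjured members were pDC-gene or mixed cells. A threshold of 30 was chosen after the data were examined, and results below are given with and without these 49 cells where they differ.

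**Figure D1:**
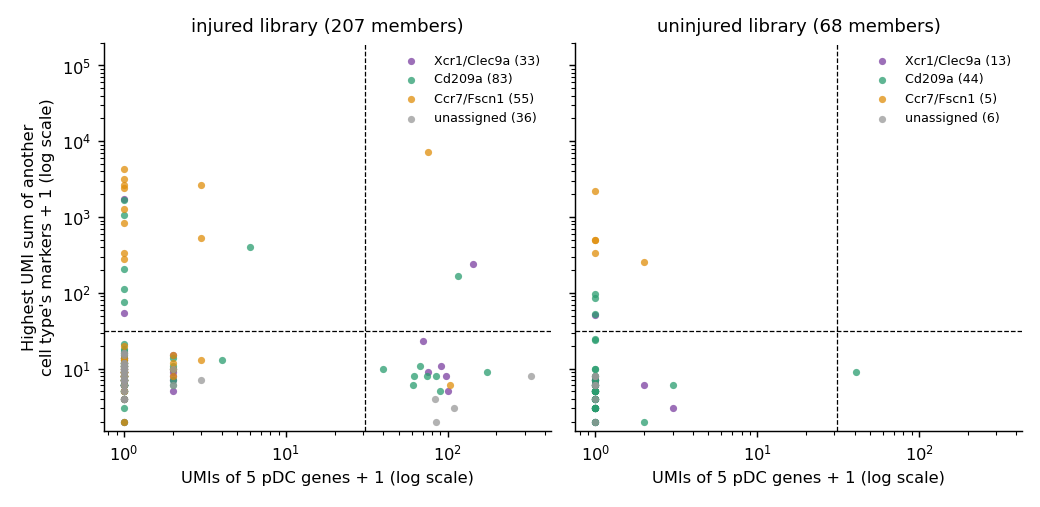
Each point is 1 member, with the UMIs of 5 pDC genes on the horizontal axis and the highest UMI sum of another cell type's markers on the vertical axis, both plus 1 on log scales, for the injured (left) and uninjured (right) library. Dashed lines mark 30 UMIs. The 21 pDC-gene cells of the injured library stand at 39 or more UMIs, and all 5 Ccr7/Fscn1 cells of the uninjured library lie above the horizontal line.

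Members made up 2.21% of filtered cells in the injured library (exact 95% interval 1.92% to 2.53%) and 1.43% in the uninjured library (1.11% to 1.81%). Without pDC-gene and mixed cells the shares were 1.79% (1.53% to 2.08%) and 1.22% (0.927% to 1.57%). All intervals here are Clopper-Pearson for shares and Poisson for summed counts. They cover counting error only: with 1 library per group there is no replicate, no test and no p-value, and injury cannot be told apart from anything else that differs between the libraries. Both libraries held cells of both sexes, and the order of the shares depended on them. In cells that held Xist alone, members were 1.74% in the injured library and 2.02% in the uninjured library. In cells that held Y-linked UMIs alone, they were 2.89% and 1.05%. How many mice went into each library is not stated.

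Subset make-up differed more than the overall share. Each member was given to the subset with the most UMIs of Xcr1 and Clec9a, of Cd209a, or of Ccr7 and Fscn1, with at least 2 and no tie. Ccr7/Fscn1 cells were 55 of 207 injured members (26.6%, 20.7% to 33.1%) and 5 of 68 uninjured members (7.35%, 2.43% to 16.3%). All 5 uninjured ones were mixed cells: Ccr7 was at 0 in them, Fscn1 alone placed them at 173 CPM, and their median was 56691 UMIs. Fscn1 is no marker of dendritic cells alone: 42.2% of the injured cells that were no members had a UMI of it. Without pDC-gene and mixed cells, 43 of 168 injured members (25.6%) and 0 of 58 uninjured members were Ccr7/Fscn1 cells. The exact interval of that 0 reaches 6.16%.

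Ccr7 is a gene of the rule, so its values in members describe the choice of cells and add no support. At least 1 Ccr7 UMI was found in 65 of 207 injured members (31.4%) and in 2 of 68 uninjured members (2.94%), against 1.18% and 0.426% of the cells that were no members. Its summed level was 207 CPM (194 to 221) in injured members and 2.33 CPM (0.635 to 5.96) in uninjured members. The uninjured members were the more deeply sequenced, and with every cell thinned to 5000 UMIs Ccr7/Fscn1 cells were 33 of 115 injured and 1 of 42 uninjured members. The direction was alike in both sexes, but on few uninjured cells and with overlapping intervals. In cells with Xist alone the shares were 20.6% (11.5% to 32.7%) and 8.16% (2.27% to 19.6%, 4 of 49 cells). In cells with Y-linked UMIs alone they were 26.5% (18.2% to 36.1%) and 0 of 16 (up to 20.6%).

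Cd209a cells were 83 of 207 injured members (40.1%, 33.4% to 47.1%) and 44 of 68 uninjured members (64.7%, 52.2% to 75.9%). As a share of all filtered cells they were 0.886% in the injured library (0.706% to 1.10%) and 0.924% in the uninjured library (0.672% to 1.24%). That share differed in opposite directions by sex, at 30 of 3616 injured and 34 of 2430 uninjured cells with Xist alone, and at 35 of 3526 injured (0.993%) and 8 of 1527 uninjured cells (0.524%) with Y-linked UMIs alone. Xcr1/Clec9a cells were 33 of 207 (15.9%) and 13 of 68 (19.1%), with overlapping intervals, and 0.352% and 0.273% of filtered cells. The remaining 36 injured and 6 uninjured members reached no subset. In counts per filtered cell, then, the Ccr7/Fscn1 cells differed most, at 0.587% in the injured library and 0.105% in the uninjured one.

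**Figure D2:**
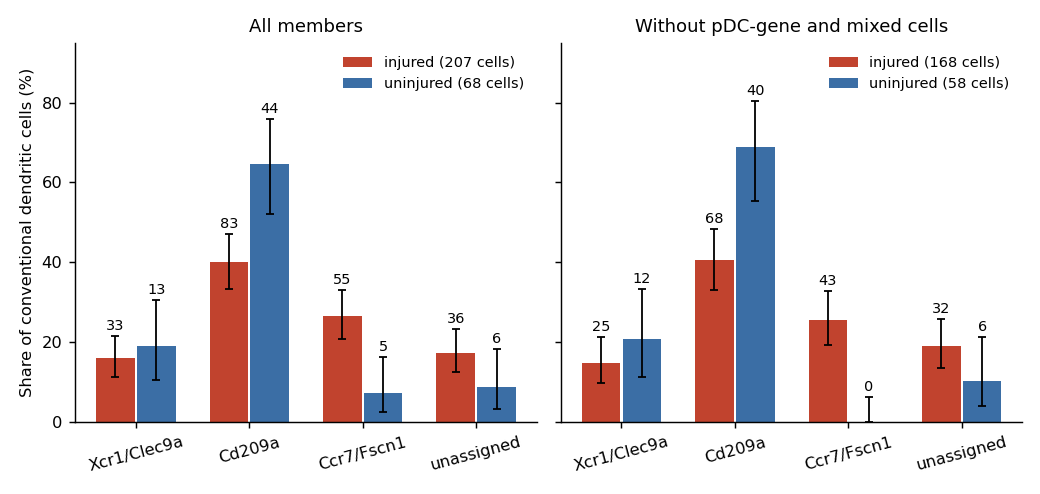
Share of members in each subset, in % with exact 95% intervals as error bars and cell numbers above them, for the injured (red, left of each pair) and uninjured (blue) library, over all members (left panel) and without pDC-gene and mixed cells (right panel). Ccr7/Fscn1 cells fall to 0 of 58 in the uninjured library once those cells are left out, against 43 of 168 in the injured library.

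The subsets carried the programs their names imply, in genes the rule did not use. These are descriptions of cells split by related genes, not tests. They leave out pDC-gene and mixed cells, so that in the uninjured library only 12 Xcr1/Clec9a and 40 Cd209a cells remained and each was the other's comparison. A gene is called higher or lower where it reached 50 CPM in either group and differed over 2-fold, with 5 CPM added to both. Among all genes, 8.4% were higher and 16.3% lower in Xcr1/Clec9a cells than in the other subsets of the injured library, and 7.73% and 17% in the uninjured library. In both libraries alike, 4.22% were higher. The cDC1 list had 12 of 13 such genes higher in the injured library and 14 of 15 in the uninjured library. Irf8, the transcription factor that specifies cDC1, was at 1222 CPM in 25 injured Xcr1/Clec9a cells and 93.4 CPM in the other injured subsets, and at 1371 and 3.23 CPM in the same groups of the uninjured library. Cadm1, an adhesion molecule of cDC1, was at 462 and 1.68 CPM in the injured library and 879 and 18.3 CPM in the uninjured library. Tlr3, the receptor for double-stranded RNA, was at 150 and 3.91 CPM, and at 217 and 3.23 CPM. Wdfy4, needed for cross-presentation of cell-associated antigen, was at 776 and 72.7 CPM, and at 899 and 152 CPM. Of 13 class I and cross-presentation genes 5 were higher in each library, Tap1, Tap2, Psmb8, Psmb9 and Wdfy4. In the injured library H2-K1 and H2-Q7 were lower, at 574 and 1158 CPM and at 26.0 and 103 CPM, and in the uninjured library none was. Tap1, a subunit of the peptide transporter, was at 178 and 79.9 CPM in the injured library and 178 and 55.9 CPM in the uninjured library. The other genes named by the rule for this subset were Ifi205, Gcsam, Itgae, Agpat3, Ppt1, P2ry14, Btla and Rab7b, all over 2-fold higher in both libraries.

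In Cd209a cells 6.34% of all genes were higher and 7.05% lower than in the other subsets of the injured library, and 17% and 7.73% in the uninjured library. In both libraries alike, 4.3% were higher. The cDC2 list had 8 of 16 genes higher in the injured library and 13 of 17 in the uninjured library, with Clec12a, an inhibitory lectin, lower in both. Mgl2 (CD301b), a galactose-binding lectin, was at 414 CPM in 68 injured Cd209a cells against 31.6 CPM in the other injured subsets, and at 1259 CPM in 40 uninjured Cd209a cells against 0 in the others. Clec10a, its close relative, was at 417 and 47.4 CPM, and at 284 and 0 CPM. Mgl2 and Clec10a are near copies in sequence, so reads could be split between them. Itgam (CD11b) was at 232 and 36.8 CPM, and at 268 and 3.87 CPM. Sirpa, the inhibitory receptor that separates cDC2 from cDC1 in flow cytometry, was at 222 and 83.3 CPM, and at 197 and 0 CPM. Cd209d, Emilin2, Clec4b1, Plaur, Ltb4r1, Tnip3 and Aass completed the 10 named genes.

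**Figure D3:**
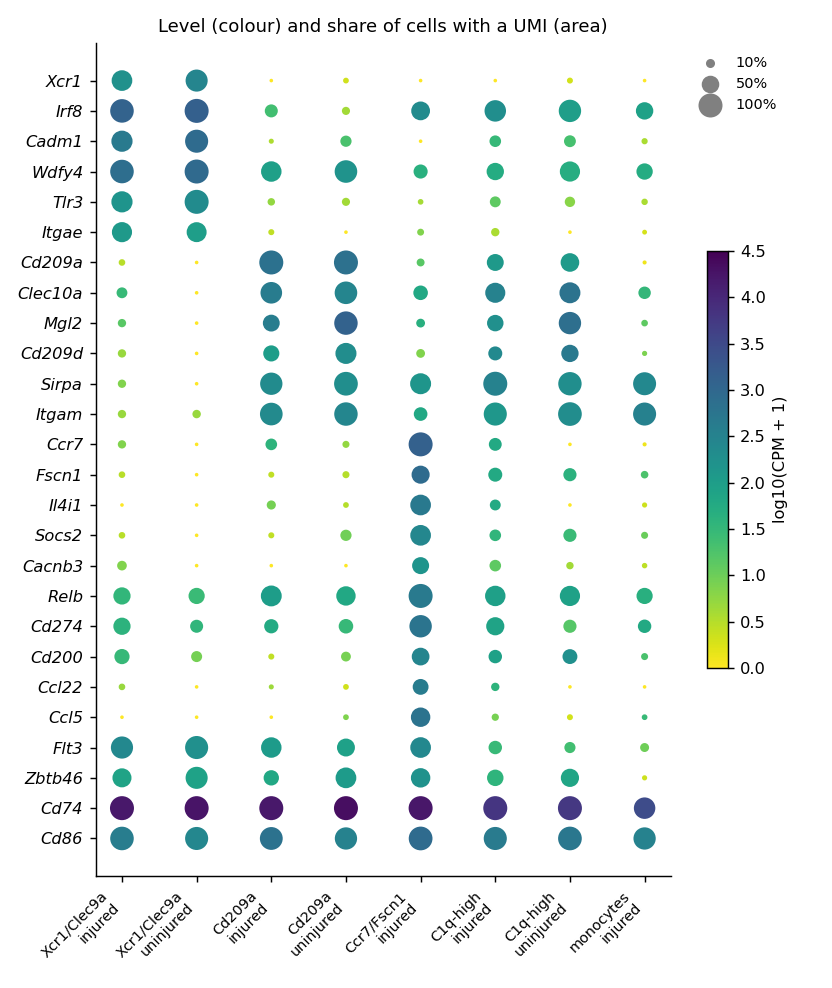
Summed level of 26 genes (colour, log10 of CPM + 1) and share of cells with a UMI (area) in the 3 subsets without pDC-gene and mixed cells, by library, beside C1q-high cells that otherwise met the rule and monocytes. Irf8 and Cadm1 are highest in the Xcr1/Clec9a columns, Mgl2 in the Cd209a columns among the subsets and Il4i1 in the Ccr7/Fscn1 column. Cd74 is higher in the subsets than in the monocytes of the injured library. Only members had to hold H2-Aa, a class II gene like Cd74, so the choice of cells bears on this difference. Flt3 and Zbtb46 are higher too, directly by choice of cells: members needed a high marker sum that includes them, and monocytes a low one.

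Ccr7/Fscn1 cells could be set against the other subsets in the injured library only. There 11.2% of all genes were higher and 10.2% lower in 43 of them than in 93 other assigned members, 403 and 369 genes of 3600. With pDC-gene and mixed cells kept 621 of 4153 genes were higher, and Nid1 and Bgn, matrix genes of other cell types, entered the 10 named genes. The maturation list holds genes known to rise when dendritic cells of any type mature. Of its 29 genes outside the rule, 25 reached 50 CPM and 24 were higher, with a median log2 ratio of 3.38 against -0.10 over all genes. The exception was Birc3, an NF-κB target that limits cell death, at 206 and 121 CPM. That list was chosen as a description of this state and was drawn up with earlier results of these data known, so its count says how fully the state was present and no more.

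Several of the members of that list feed signalling back on the cell or its T cell partner. Il4i1, a secreted amino acid oxidase that restrains T cells, was at 470 CPM (418 to 526) in Ccr7/Fscn1 cells and 5.46 CPM (2.50 to 10.4) in the others. Socs2, an inhibitor of cytokine signalling, was at 265 and 1.82 CPM. Cd274 (PD-L1), the ligand of the PD-1 checkpoint, was at 584 CPM (526 to 646) and 51.6 CPM (41.2 to 63.8), an 11.3-fold difference (8.93 to 14.5), and was seen in 86.0% and 35.5% of cells. Pdcd1lg2 (PD-L2) was at 70.3 and 16.4 CPM, and Cd200, the ligand of an inhibitory myeloid receptor, at 284 and 10.3 CPM. In all, 5 of 9 checkpoint and inhibitory genes at 50 CPM were higher, and 1, Havcr2 (TIM-3), was lower.

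Of 9 costimulatory genes 4 were higher and 1, Cd48, was lower. Cd40, the receptor for T cell help, was at 181 and 30.9 CPM, a 5.85-fold difference (4.18 to 8.30). Icosl, Tnfsf4 and Icam1 were the others that were higher. Cd86, a CD28 ligand, was at 882 and 559 CPM and Cd80 at 239 and 129 CPM, both within 2-fold. The class II genes gave no common direction: 2 of 10 were higher, 2 lower and 6 within 2-fold. Cd74, the invariant chain, was at 17021 and 16206 CPM. H2-Eb2 and H2-DMb2 were higher, at 150 against 9.71 CPM and at 269 against 74.6 CPM. H2-DMb1 and H2-Ob were lower, at 373 against 839 CPM and at 9.37 against 55.2 CPM. H2-DMb1 and H2-DMb2 are close paralogs, so how their reads were shared out is uncertain. H2-K1 and B2m, the heavy and light chains of class I, were at 1708 and 767 CPM and at 2016 and 1001 CPM.

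Of 10 chemokine genes 4 were higher (Ccl5, Ccl17, Ccl22 and Cxcl16) and 3 lower (Ccl4, Ccl6 and Ccl9). Ccl5, a chemokine that draws T cells, was at 607 CPM in Ccr7/Fscn1 cells and at 0 in the others, at least 334-fold higher against a limit of 3 UMIs over the group. Ccl22, a ligand of Ccr4, was at 415 and 3.64 CPM. Ccl17, the other Ccr4 ligand, was at 172 and 2.43 CPM, with 53.6% of its UMIs in 1 cell. Il12b, a subunit of IL-12, was at 81.2 and 0 CPM but came from 9.30% of the cells, and 76.9% of its UMIs were in 1 cell. Among receptors, Ccr2, which draws monocytes and their relatives into tissue, was at 155 and 405 CPM, and Gpr183, which senses oxysterols, at 629 and 203 CPM. Fabp5, a fatty acid carrier, had 4692 CPM against 234 CPM, and the tetraspanin Cd63 had 1155 against 65.5 CPM. The other named genes were Mreg, Syn3, Cacnb3, Serpinb6b and Eno3.

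**Figure D4:**
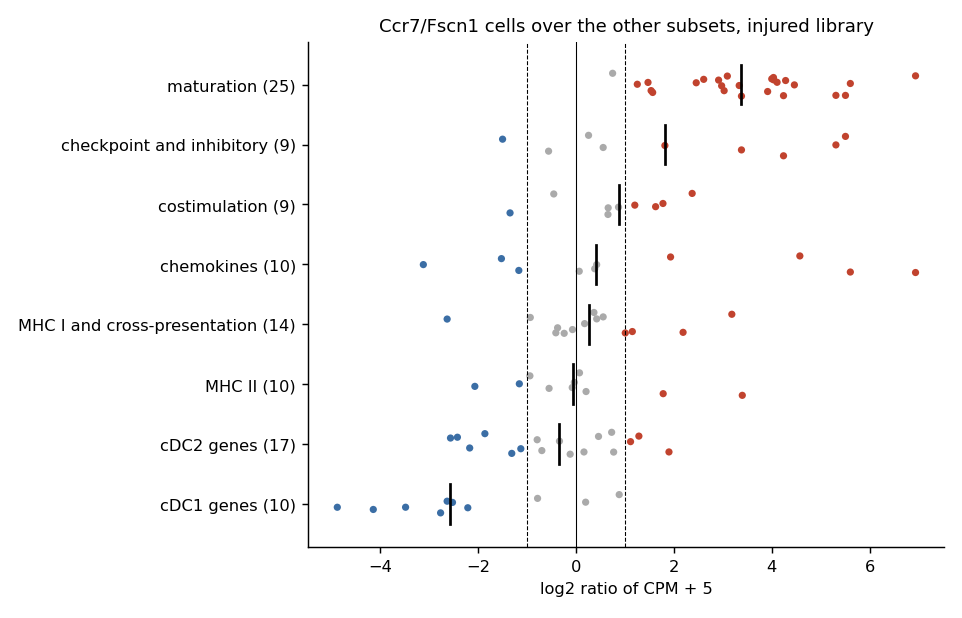
Log2 ratio of CPM + 5, Ccr7/Fscn1 cells over the other subsets of the injured library without pDC-gene and mixed cells, for each gene at 50 CPM or more in 8 lists (number of genes in brackets). Points are genes, red above 1 and blue below -1, and the black bar is the median; 24 of 25 maturation genes lie above 1 and 7 of 10 cDC1 genes below -1.

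Of 10 cDC1 genes, 7 were lower and none higher, Irf8 among the 3 within 2-fold at 222 and 386 CPM. Of 17 cDC2 genes, 6 were lower (Itgam, Clec10a, Mgl2, Clec4b1, Cd300a and Notch2) and 3 higher (Tmem176a, Tmem176b and Ltb), and 8 were within 2-fold, with a median log2 ratio of -0.34. From which type each cell came cannot be read from these sums.

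The NF-κB family runs this state in textbook accounts, and its own genes were among those that stood higher. Relb, the subunit tied to dendritic cell maturation, was at 468 CPM (417 to 524) in Ccr7/Fscn1 cells and 81.3 CPM (68.1 to 96.3) in the others, and had a UMI in 100% and 66.7% of cells. Nfkb2, the precursor of its partner p52, was at 114 and 35.2 CPM, and Birc2, a ubiquitin ligase of that pathway, at 383 and 44.3 CPM. Their promoters are shown because both have matches to a κB-like motif, GGGNNTTCC on either strand, set in capitals. The sequences are RefSeq's for build GRCm38.p6, from 250 bases before a start site to 50 after it: Nfkb2 at chr19:46304487-46304786 on the plus strand and Birc2 at chr9:7837008-7837307 on the minus strand. These start sites lie inside the genes as annotated, which begin at chr19:46300994 for Nfkb2 and chr9:7837131 for Birc2.
Nfkb2: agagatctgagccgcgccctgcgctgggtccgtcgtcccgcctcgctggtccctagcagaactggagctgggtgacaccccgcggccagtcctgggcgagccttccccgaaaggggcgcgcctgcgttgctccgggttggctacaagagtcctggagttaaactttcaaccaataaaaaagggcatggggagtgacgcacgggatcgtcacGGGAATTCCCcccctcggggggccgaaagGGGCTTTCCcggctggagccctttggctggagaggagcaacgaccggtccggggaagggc
Birc2: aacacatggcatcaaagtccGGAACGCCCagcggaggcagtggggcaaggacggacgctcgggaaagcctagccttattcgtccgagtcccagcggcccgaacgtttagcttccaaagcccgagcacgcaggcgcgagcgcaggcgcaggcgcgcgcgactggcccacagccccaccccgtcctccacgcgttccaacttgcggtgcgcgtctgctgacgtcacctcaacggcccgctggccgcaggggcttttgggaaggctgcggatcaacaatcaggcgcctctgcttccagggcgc
In Nfkb2 there were 2 separate matches, the first a pair that overlap on opposite strands, and in Birc2 there was 1. The table had 28 promoters for 22 of the 29 maturation genes. Of these promoters 3 held the motif (10.7%), as did 1912 of all 32851 promoters in the table (5.82%). These are letter matches in a short window and say nothing of binding.

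Injury was compared within Cd209a cells, the one subset with 20 or more cells in both libraries, at 83 and 44. Of 3676 genes at 50 CPM or more in either library, 287 were over 2-fold higher in the injured library (7.81%) and 201 lower (5.47%). In the 68 and 40 cells left without pDC-gene and mixed cells, 6.72% were higher and 6.36% lower. The higher lists shared 193 genes, 67.2% of the first and 80.8% of the second, and the lower lists 167 genes, 83.1% and 73.9%. Xcr1/Clec9a cells (33 and 13) and Ccr7/Fscn1 cells (55 and 5) were too few to compare.

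Of 9 pattern recognition genes 4 were higher in injured Cd209a cells and none lower, with the same count without pDC-gene and mixed cells. Of 4 cytokine genes 2 were higher, Il1b and Il1rn, and of 3 without those cells 1, Il1b. Ptgs2 (COX-2), the inducible enzyme of prostaglandin synthesis, was at 282 CPM (256 to 309) in injured Cd209a cells and 7.79 CPM (3.36 to 15.3) in uninjured ones. Il1b, the inflammasome cytokine, was at 1682 and 704 CPM. Il1r2, its decoy receptor, was at 510 and 27.3 CPM, and Il1rn, its receptor antagonist, at 55.5 and 6.81 CPM. Without pDC-gene and mixed cells Il1rn was at 47.0 and 7.53 CPM, under the 50 CPM filter. Nlrp3, an inflammasome sensor, was at 183 and 51.6 CPM, and Nod2, a sensor of bacterial cell wall peptides, at 69.3 and 15.6 CPM. The other pattern recognition genes that were higher were the C-type lectins Clec4n (dectin-2), at 138 and 5.84 CPM, and Clec4e (Mincle), at 91.5 and 8.76 CPM. Clec4d, which pairs with them, was at 96.7 and 0.973 CPM. All these levels, except the second pair for Il1rn, keep pDC-gene and mixed cells. Without those cells Ptgs2, Il1b, Il1r2, Nlrp3, Nod2, Clec4n, Clec4e and Clec4d were still over 2-fold higher. Over all Cd209a cells the log2 ratio of Il1b was 1.36 with Xist alone and 1.18 with Y-linked UMIs alone. That of Il1r2 was 4.51 and 2.71, and that of Nlrp3 2.49 and 0.61.

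The chemokine genes split. Ccl17, which draws Ccr4+ T cells, was at 1.96 CPM (0.404 to 5.73) in injured Cd209a cells and 218 CPM (190 to 249) in uninjured ones, where 34.1% of cells had a UMI. Cxcl2, a neutrophil attractant, was at 476 and 6.81 CPM, but 56.1% of the injured UMIs were in 1 cell, and without pDC-gene and mixed cells it was at 138 and 7.53 CPM. Ccl8 and Cxcl16 were higher too, and Ccl6 and Ccl9 lower. Ccl6 and Ccl9 came within 2-fold without those cells, with log2 ratios of -0.94 for Ccl6 and -0.95 for Ccl9. The direction of Ccl6 turned with sex, at a log2 ratio of -1.66 in cells with Xist alone and 0.82 in cells with Y-linked UMIs alone, and Cxcl16 was at 1.96 and 0.02. Of 6 chemotactic receptors at 50 CPM 3 were higher: Ccr1, Gpr183 and Ccrl2. The log2 ratio of Ccrl2 was 2.09 with Xist alone and -0.13 with Y-linked UMIs alone.

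Of 11 C-type lectins 3 were higher (Clec4d, Clec4e and Clec4n) and 3 lower (Clec4b1, Mrc1 and Mgl2), Mrc1 coming within 2-fold without pDC-gene and mixed cells. Mgl2 was at 407 CPM (376 to 440) in injured Cd209a cells and 1315 CPM (1246 to 1387) in uninjured ones, and a UMI was seen in 45.8% and 93.2% of cells. Cd163, a receptor for haemoglobin with haptoglobin, was at 13.7 and 308 CPM. Retnla (RELMα), a secreted product of IL-4 signalling, was at 60.8 CPM in injured Cd209a cells and 2073 CPM in uninjured ones, and in the injured library all its UMIs came from 1 cell. Clec10a, by contrast, was within 2-fold at 368 and 285 CPM. Aldh1a2, which makes retinoic acid, was at 4.57 and 54.5 CPM, and its log2 ratio was -3.03 in cells with Xist alone and -0.17 in cells with Y-linked UMIs alone. The other lower genes named by rank were Cd2, Spink2, Hepacam2, Sult1a1, Slc27a3, Hr and Qpct. Cd2 was lower in cells with Xist alone (log2 ratio -3.43) and not in those with Y-linked UMIs alone (0.42), where the uninjured library had 8 cells.

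All 8 class II genes at 50 CPM and all 11 of the class I and cross-presentation list stayed within 2-fold. Of 11 lysosomal processing genes 3 were higher, Ctsd, Ctsl and Lgmn, with a median log2 ratio of 0.59, and without pDC-gene and mixed cells 3 were, Ctsl, Lgmn and Ifi30, with a median of 0.72. Ctsl, the protease cathepsin L, was at 425 and 63.3 CPM. Cd74, the invariant chain, was at 14063 CPM (13876 to 14252) in injured Cd209a cells and 20852 CPM (20573 to 21133) in uninjured ones. Cd86 was at 532 and 317 CPM. Of 6 costimulatory genes 1 was lower, the adhesion molecule Icam1, at 124 and 326 CPM. Of 12 maturation genes at 50 CPM 4 were higher (Tbc1d4, Traf1, Cd63 and Cd274) and none lower. Of the 16 cDC2 genes 1 was higher (Cd300a) and 4 lower (Irf4, Mgl2, Clec4b1 and Rbpj). Without pDC-gene and mixed cells Cd274, Irf4 and Rbpj came within 2-fold and Marcks was lower.

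Among genes that met the limits for naming, Ifitm1, an interferon-inducible membrane protein, had the highest ratio. It was at 1346 CPM (1289 to 1406) in injured Cd209a cells and 10.7 CPM (5.35 to 19.2) in uninjured ones, found in 78.3% and 15.9% of cells. Other interferon-stimulated genes were less clear. Isg15, Irf7, Oasl2 and Bst2 were higher among 6 at 50 CPM, but without pDC-gene and mixed cells 4 reached that level and 2 were higher, Isg15 at 61.0 and 14.0 CPM and Bst2 at 147 and 45.2 CPM. Irf8 also turned on those cells: it was at 200 and 15.6 CPM with them and at 21.8 and 3.23 CPM, under the 50 CPM filter, without them. Of 19 immediate early and heat shock genes 5 were lower and none higher, Egr1, Egr2, Dusp1, Hspa1a and Hspa1b, with Hspa1b at 197 and 641 CPM. Such genes also move with tissue handling, whose part was not tested.

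Of 6 matrix and growth factor genes 3 were higher and 1 lower, and 4 and 2 of 7 without pDC-gene and mixed cells. Timp1, an inhibitor of matrix proteases, was at 81.7 and 9.73 CPM, and Mmp14, a membrane-bound protease, at 68.6 and 2.92 CPM. Spp1 (osteopontin) was at 299 and 26.3 CPM with 91.2% of the injured UMIs in 1 cell, and its log2 ratio was 4.76 with Xist alone and -0.45 with Y-linked UMIs alone. Fn1, fibronectin, was lower at 291 and 729 CPM, although its log2 ratio was 2.02 in cells with Y-linked UMIs alone.

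Cell cycle genes depended on the cells kept: none of 5 differed over 2-fold, and 4 of 6 were lower without pDC-gene and mixed cells (Mki67, Top2a, Cenpf and Stmn1).

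Some monocyte genes moved with these differences. The 8 genes of the monocyte list summed to 1817 CPM in injured Cd209a cells and 983 CPM in uninjured ones, and to 1709 and 975 CPM without pDC-gene and mixed cells, when Ly6c2 and Chil3 were at 0 in the uninjured library and none was at 0 in the injured one. Plac8, a gene of Ly6c+ monocytes, was at 749 and 41.9 CPM, and Ly6c2 at 142 and 6.81 CPM in 36.1% and 2.27% of cells. Injured monocytes, which were chosen in part on Ly6c2, had 947 CPM of it. The 9 macrophage genes summed to 904 and 928 CPM, with none at 0 in either library. They include C1qa, C1qb and C1qc, which the rule capped in members of both libraries. The 6 genes of the conventional dendritic cell list, all used to choose members or subsets, summed to 768 and 893 CPM. Without pDC-gene and mixed cells they summed to 887 and 881 CPM. The 6 neutrophil genes summed to 1194 and 0.973 CPM, and to 57.5 and 1.08 CPM without those cells. The 6 fibroblast genes summed to 1554 and 150 CPM, and to 441 and 144 CPM without those cells. The pDC list of 8 genes summed to 1652 and 342 CPM with them and 497 and 188 CPM without them, where Siglech and Klk1 were at 0 in both libraries. The part of such cells or of free RNA in the differences was not tested, nor was whether some Cd209a cells came from monocytes.

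**Figure D5:**
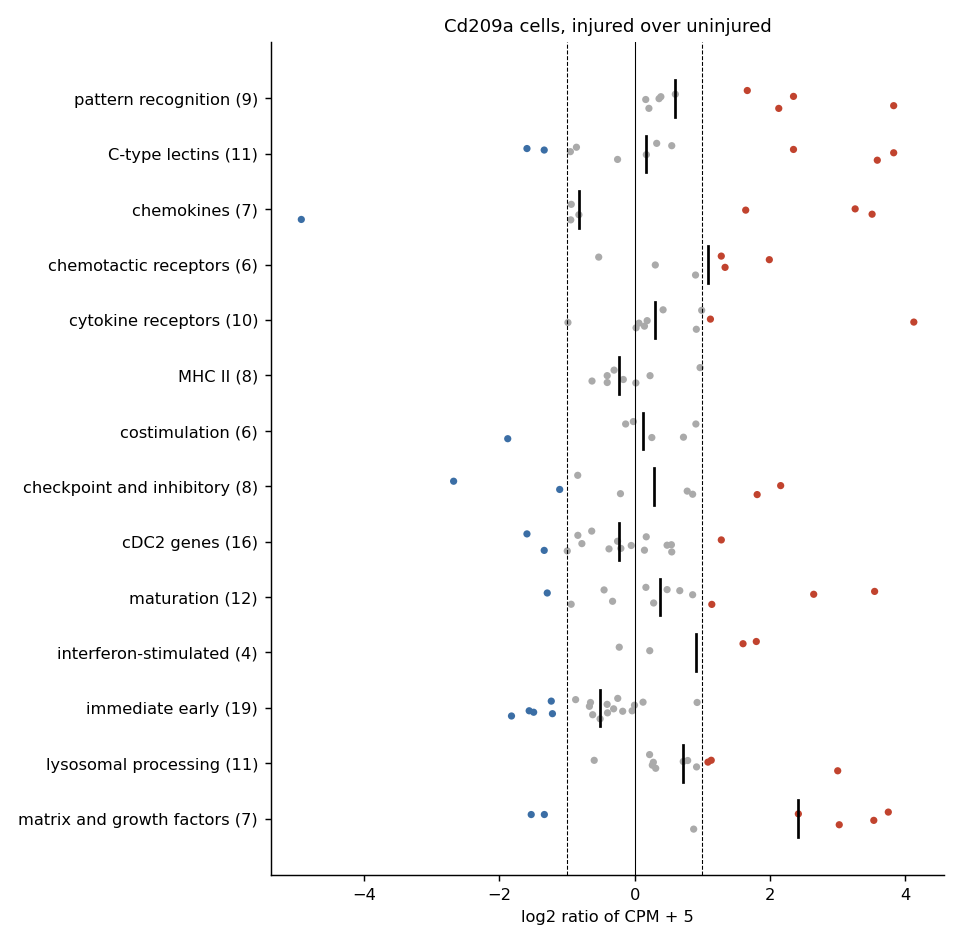
Log2 ratio of CPM + 5, injured over uninjured Cd209a cells without pDC-gene and mixed cells, for each gene at 50 CPM or more in 14 lists (number of genes in brackets). Points are genes, red above 1 and blue below -1, and the black bar is the median; 4 of 9 pattern recognition genes lie above 1, and all 8 class II genes lie between -1 and 1.

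Over all members the comparison mixes these differences with the difference in subset make-up. Of 3915 genes at 50 CPM 268 were higher in the injured library (6.85%) and 242 lower (6.18%), and 6.37% and 6.45% without pDC-gene and mixed cells. Among genes that met the limits for naming, those with the highest ratios included both kinds. Mreg and Il4i1, at 74.8 and 1.16 CPM and at 90.6 and 4.66 CPM in injured and uninjured members, are genes of Ccr7/Fscn1 cells as shown above. Ifitm1 (1290 and 8.15 CPM), Clec4n (115 and 4.66 CPM), B3gnt5, Il21r and Spon1 were named in Cd209a cells as well. Cyp7b1, an oxysterol hydroxylase, was at 86.5 CPM in injured members and at 0 in uninjured ones, at least 49.5-fold higher against a limit of 3 UMIs over the group. Dscam was at 71.4 and 0 CPM, at least 40.9-fold higher. Edil3, Nrg1 and Cd72 completed the 12 higher genes. Among lower genes, Retnla was at 26.7 CPM in injured members and 1564 CPM in uninjured ones, and was found in 0.966% and 45.6% of cells. Lpl, lipoprotein lipase, was at 34.1 and 485 CPM, and Tnip3, a damper of NF-κB signalling, at 84.1 and 512 CPM. Cd163, Qpct, Fcrls, Arhgap6, Cd226, Gfra2, Hr, Sult1a1 and Skint3 completed the 12 lower genes. All 24 kept a difference over 2-fold in the same direction under each of the 18 alternatives run for members. The genes were picked for large ratios in these same cells, and the alternatives that change only the level filter cannot alter a ratio.

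C1q-high cells, which met every rule except the C1q limit, numbered 37 in the injured library and 35 in the uninjured library. Cd74 was at 11785 CPM in injured members against 6519 CPM in injured C1q-high cells, and at 16746 against 5835 CPM in the uninjured library. Mrc1, the mannose receptor of tissue macrophages, was at 148 against 1078 CPM and at 375 against 2178 CPM. Dpp4 was at 110 against 12.0 CPM and at 84.4 against 0 CPM. Cd209a, a gene of the rule, was at 119 and 115 CPM in injured and uninjured C1q-high cells. Cd207 (langerin), the defining gene of Langerhans cells, was at 0.678 CPM in injured members and 4.08 CPM in uninjured ones.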

How the data were processed

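The deposited values were whole-number UMI counts per gene and barcode, made by the authors with Cell Ranger 5.0.1 on mm10, per the submitters' processing notes. Libraries held 10691 (injured) and 6850 (uninjured) barcodes, and 9366 and 4760 passed the filters on genes and mitochondrial UMIs. The members, subsets and gene lists were chosen with earlier results of these data known. UMIs were summed over cells per group and compared as log2 ratios of CPM + 5. Genes at 50 CPM or more in either group were compared, and over 2-fold was called higher or lower. The level filter and the 2-fold call were tested on simulated summed counts with planted changes larger than 2-fold and no variation between cells. The choice of members and the limits for pDC-gene and mixed cells were not simulated. Named genes were the first 12 (members), 8 (Cd209a cells) or 10 (subsets) by ratio (each way between libraries, higher only for subsets), seen in at least 20% of cells, with at most 20% of UMIs in 1 cell and a level of at least 0.2 of the highest other class. Rule, mitochondrial, ribosomal, haemoglobin, immunoglobulin, unnamed and sex-linked marker genes were left out of the naming. Other genes in the text belong to the lists or were chosen after their values were seen. Doublets were kept: Scrublet's automatic threshold marked 1 injured and 3 uninjured cells and so did not work, and a score over 0.2 marked 5 and 2 members, all of them mixed cells. Python 3.11.15, scanpy 1.11.5, scipy 1.17.1 and pandas 2.3.3 were used.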

Additional observations from a re-analysis of the deposited data

How the results depend on the processing

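The share of conventional dendritic cells among filtered cells was 0.782 percentage points higher in the injured library. The difference was 0.555 with a marker sum of 5 or more, 0.488 in cells thinned to 5000 UMIs, 0.753 without members holding 3 or more UMIs of endothelium markers and 0.575 without pDC-gene and mixed cells. It was 1.84 in cells with Y-linked UMIs alone, and it reversed to -0.274 in cells with Xist alone and to -0.408 without members holding 3 or more UMIs of fibroblast markers, which left 9 injured and 24 uninjured members. For Xcr1/Clec9a cells among members the difference was -3.18 points. It was -32.4 with Y-linked UMIs alone and -6.51 with a stricter subset rule, and it reversed to 7.26 with Xist alone and 5.56 under the fibroblast limit. For Cd209a cells it was -24.6 points, and -21.8 with Xist alone, -15.7 with Y-linked UMIs alone and -26.9 under the stricter rule. For Ccr7/Fscn1 cells it was 19.2 points, and 12.5 with Xist alone, 26.5 with Y-linked UMIs alone, 2.78 under the fibroblast limit, 29.4 under the endothelium limit, 26.3 thinned and 25.6 without pDC-gene and mixed cells. The causes were not tested. Gene counts over all members became 508 higher and 376 lower at 20 CPM, 814 and 489 with no level filter, 405 lower with Xist alone and 415 higher with Y-linked UMIs alone. In Cd209a cells they became 527 and 361 at 20 CPM, and 316 lower with Y-linked UMIs alone. Of the 16 genes named in Cd209a cells, Cd2 reversed to a log2 ratio of 0.42 with Y-linked UMIs alone. The other 15 stayed over 2-fold in the same direction under the 9 alternatives run. These genes too were picked for large ratios in the same cells, and the filter at 20 CPM cannot alter a ratio. The fibroblast limit left too few cells for gene counts. No paired analysis was possible because each group is 1 library, and for the same reason no replicate could be left out. Subsets of 5 to 13 uninjured cells limit what can be compared, and a gene near 50 CPM rests on few UMIs.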
